A study of Homo sapiens with 12 samples.

Results

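The 6-hour response of H1 neural cultures to dexamethasone was measured by comparing 3 cultures that received 1 µM of the drug in the medium with 3 sister cultures that received its DMSO vehicle. These 6 libraries were taken by their cell line label from a series of 12, whose other 6 libraries came from the line H9, and were fitted alone so that no H9 library entered the spread. H1 is an established line of human embryonic stem cells. All cultures of both groups had been differentiated for 10 weeks by dual SMAD inhibition, in which the activin and BMP branches of TGF-beta signalling are blocked so that stem cells take a neural course, and were kept in a neural differentiation medium. The replicates are sister cultures of 1 line, so a p-value here sets a difference against the variation among sister cultures and says nothing of other differentiations or lines.

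Dexamethasone is a synthetic glucocorticoid. It crosses the cell membrane and binds the glucocorticoid receptor, which leaves its complex of HSP90 and co-chaperones, enters the nucleus and acts on genes through DNA elements or through other transcription factors. In brain tissue the receptor is present in neurons and glia, and its best known targets act in feedback on the receptor itself, in fuel use, in circadian timing and in the restraint of cytokines.

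The 6 libraries held between 22839733 and 25597731 counts on genes, of which 2.91% to 3.23% lay on mitochondrially encoded genes, and no 2 libraries agreed within sampling noise. Levels are given as TMM-scaled CPM, the counts of a gene relative to the total of its library. They are not divided by gene length, so they are compared between cultures and not between genes. The neural label was checked against markers. VIM, an intermediate filament of radial glia though not of them alone, averaged 3283 CPM in the vehicle cultures. STMN2 of neurons averaged 774 CPM and SLC1A3, a glutamate transporter of radial glia and astrocytes, 178 CPM (vehicle means, n = 3). The pluripotency gene NANOG had at most 0.123 CPM in any H1 library. Of 9 pluripotency markers, LIN28A, LIN28B and DNMT3B were high enough to be tested. Their summed level was 35.9 to 37.0 CPM in the vehicle cultures. Of 10 markers of microglia and blood only TMEM119 was high enough to be tested. SOX2 and HES5 of radial glia and ALDOC of astrocytes were listed at 0 in all 12 libraries, as were 2461 of 19835 protein-coding genes, among them OAZ1, HNRNPL and NSF, which most cells use. A 0 in these files was therefore not read as absence. Mesenchymal collagens were high, with COL1A1 at 1443 ± 377 CPM in the vehicle cultures (mean ± SD, n = 3).

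Few genes passed the test with 3 cultures per treatment, and a gene that did not pass may still have changed. Of 16045 autosomal genes tested, 26 were higher, which is 0.162% of them, and 23 were lower, which is 0.143% (edgeR quasi-likelihood F-test, adjusted p under 0.05). The rises included established receptor targets such as FKBP5, PER1 and MT2A. The falls included the chemokine CCL2, the TGF-beta ligands TGFB2 and TGFB3 and the mineralocorticoid receptor NR3C2. The calls for TGFB2, TGFB3 and NR3C2, unlike that for CCL2, depended on single cultures. Together the 49 genes are 0.305% of those tested. In each of the 49 the 3 dexamethasone cultures lay wholly above or wholly below the 3 vehicle cultures, a separation that 14.3% of all tested autosomal genes showed. In bulk RNA, more or fewer cells of a type and more or less RNA per cell cannot be told apart.

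Rises were larger than falls. Among the 26 rises, 9 exceeded a log2 fold change of 1, 10 lay between 0.5 and 1 and 7 below 0.5, with a median of 0.79. Among the 23 falls, only KCNJ13 exceeded 1 in size, 12 lay between 0.5 and 1 and 10 below 0.5, with a median of -0.58. The median over all tested autosomal genes was -0.00386, with 48.6% of them positive and 51.4% negative. At an unadjusted p under 0.05, 5.32% were higher and 4.68% lower. The median vehicle level, which sets the depth behind a gene, was 58.1 CPM for the genes that fell, 31.5 CPM for those that rose and 22.7 CPM for all tested autosomal genes. All but 1 of the 49 are annotated as protein coding. The exception was AC009646.2, an antisense RNA. On the X chromosome, which was outside the count, TSC22D3 also passed the test.

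**Figure D1:**
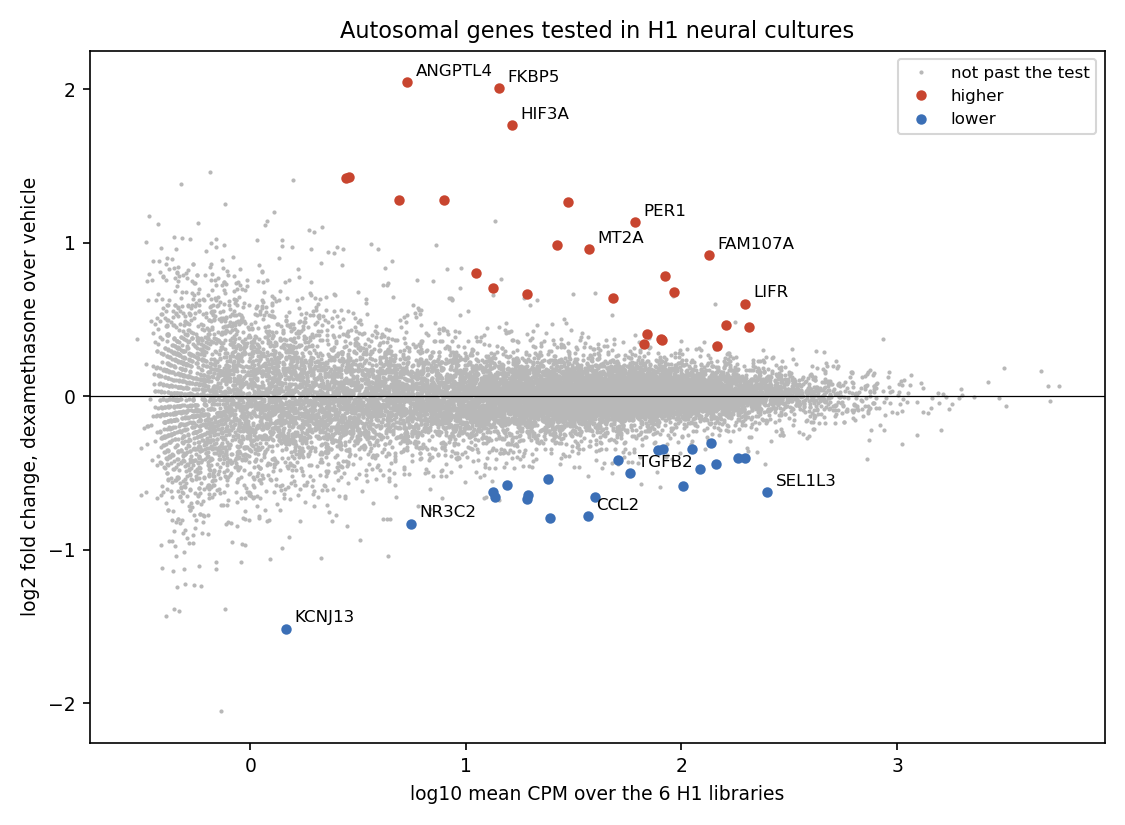
Log2 fold change of dexamethasone over vehicle (vertical axis) against the log10 of the mean CPM over the 6 H1 libraries (horizontal axis), 1 point per tested autosomal gene, with the 26 genes higher in red and the 23 lower in blue. The largest rises, ANGPTL4 and FKBP5, stand near 2 at low to moderate levels, and all falls except KCNJ13 lie above -1.

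The counts depended on single libraries. Without dexamethasone culture 2 the rises numbered 77, and without vehicle culture 3 they numbered 16. The falls numbered 12 without vehicle culture 1, 10 without vehicle culture 3, 4 without dexamethasone culture 1 and 11 without dexamethasone culture 3. There were 15 rises and 4 falls that passed the test whichever culture was left out: ANGPTL4, FKBP5, HIF3A, ALDH1L1, ZBTB16, DGKG, RASSF4, PER1, AC009646.2, MT2A, ADAMTS9, MAGEL2, LIFR, PIK3R1 and CALB1 among the rises and SEL1L3, CA2, CCL2 and SYTL2 among the falls. The remaining 11 rises and 19 falls each lost the call without at least 1 culture, and PLEKHG1 and PLEKHG4B lost it without any 1 of the 6. No sign changed in any of these fits. With all 12 libraries in 1 fit, which takes the spread from both lines, 9 of the rises and none of the falls passed (edgeR, with 279 autosomal genes lower at an unadjusted p under 0.05). That fit included H9 vehicle culture 3, the library with the fewest counts, and was not repeated without it. DESeq2 on the H1 libraries called 94 higher and 91 lower, and an edgeR fit with same-numbered cultures as blocks called 98 and 104.

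**Figure D2:**
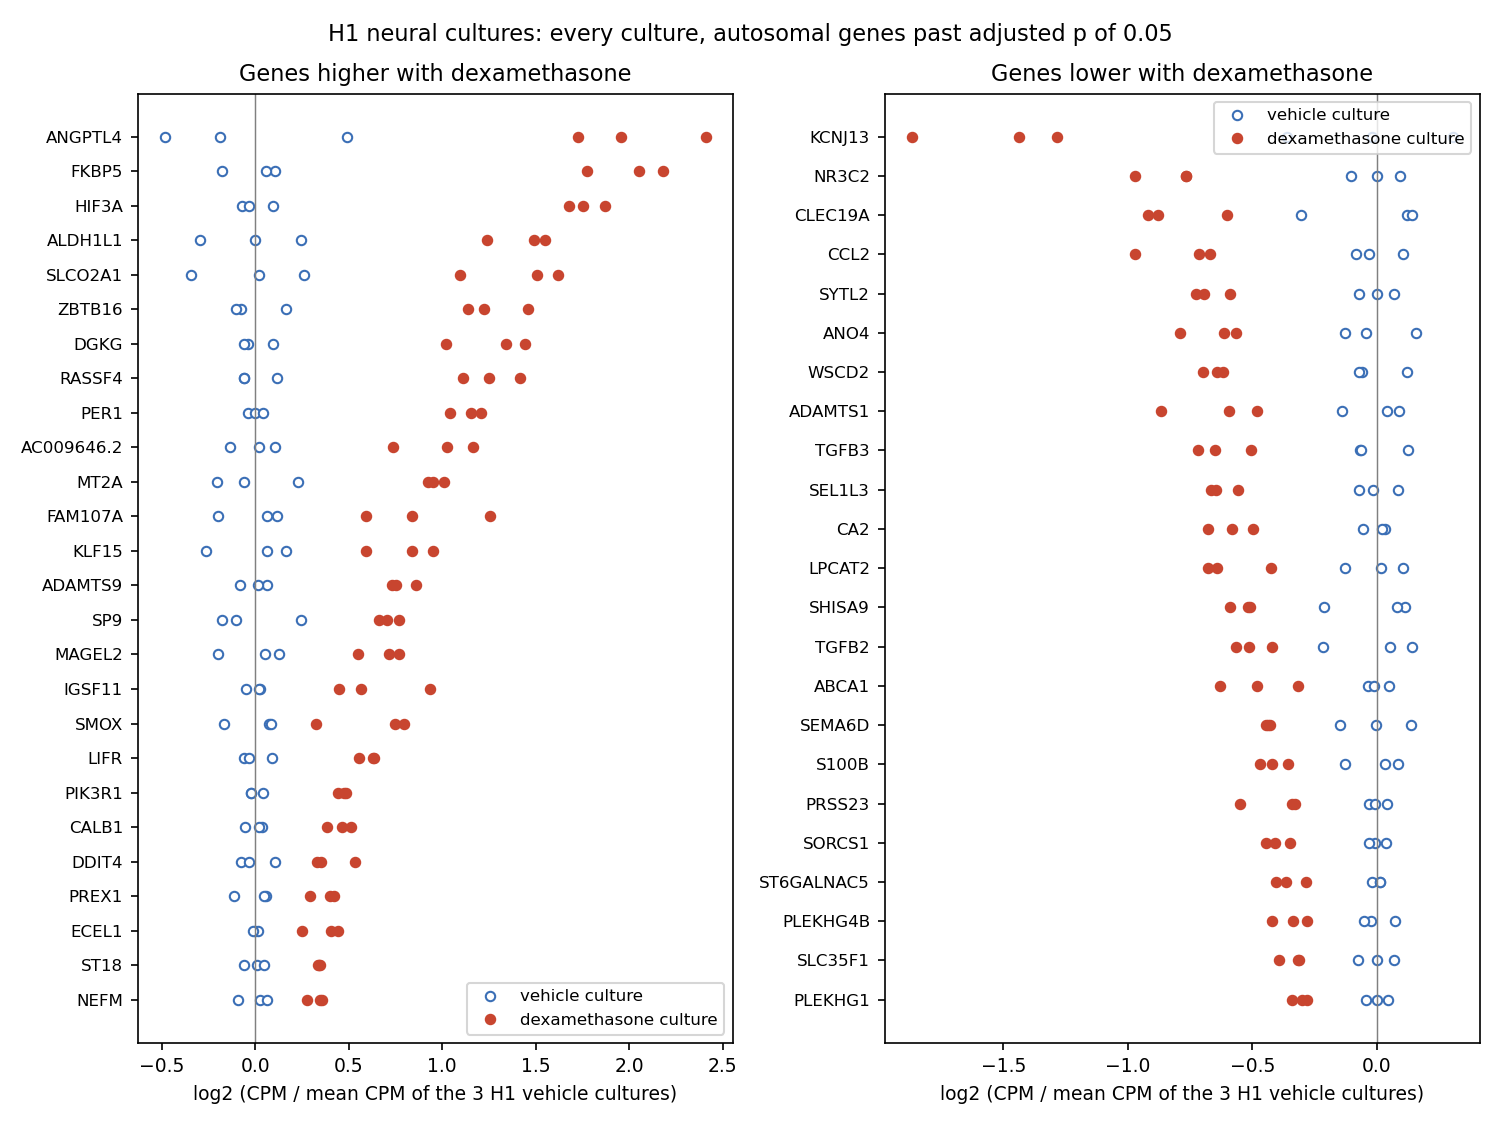
Every H1 culture for the 49 genes past the test, as log2 of the CPM over the mean of the 3 vehicle cultures (horizontal axis, 0 at that mean). Open blue points are vehicle cultures and filled red points are dexamethasone cultures, with rises on the left and falls on the right, ordered by size. The colours do not overlap in any gene, and ANGPTL4 and KCNJ13, the genes at the top of each panel, also have the widest scatter within a group.

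Among the steroid receptors and their chaperones, 1 gene rose and 1 fell. FKBP5 encodes a co-chaperone that lowers the receptor's affinity for hormone (ENSG00000096060.14, chromosome 6, 35573585 to 35728583, minus strand, GRCh38). FKBP5 stood at 6.10, 5.90 and 5.01 CPM in vehicle cultures 1 to 3 and at 19.4, 23.5 and 25.7 CPM in dexamethasone cultures 1 to 3. The lowest treated culture was thus well above the highest vehicle culture, and the log2 fold change was 2.01 ± 0.13 (SE), a 4.03-fold rise (edgeR adjusted p = 1.35e-05). NR3C2, the mineralocorticoid receptor, a close relative that also binds cortisol (chromosome 4, 148078762 to 148444698), went the other way, with 7.61, 6.64 and 7.14 CPM in the vehicle cultures and 4.19, 3.63 and 4.20 CPM in the dexamethasone cultures. Its log2 fold change was -0.83 ± 0.13 (edgeR adjusted p = 0.0226). The call for NR3C2 was lost on leaving out any culture except vehicle culture 2. NR3C1, the glucocorticoid receptor itself, had 35.5, 30.7 and 31.4 CPM with vehicle and 25.8, 25.0 and 23.8 CPM with dexamethasone. These groups did not overlap either, but the difference of -0.39 ± 0.08 (log2) missed the threshold (edgeR adjusted p = 0.0879). Of the 25 tested members of the list of the receptor and its chaperones, FKBP5 and NR3C2 were those past the test. The list's median log2 fold change was 0.05. Of all tested autosomal genes, 0.305% passed.

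Established glucocorticoid receptor targets made up 9 of the 26 rises and none of the falls. Of 42 list members, 2 are not autosomal and 34 passed the filter on low counts. Of these 34, 26 had a log2 fold change above 0, with a median of 0.30 against -0.00386 for all tested autosomal genes, of which 48.6% were above 0 and 0.162% were called higher. The list was written with earlier results of these data known, so its count is a description. Beside FKBP5, the 9 were ANGPTL4, HIF3A, ZBTB16, PER1, MT2A, FAM107A, KLF15 and DDIT4.

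ANGPTL4, a secreted inhibitor of lipoprotein lipase (chromosome 19, 8363289 to 8374373), had the largest log2 fold change, 2.05 ± 0.24, from a low level. It stood at 1.82, 2.91 and 1.48 CPM with vehicle and at 6.83, 11.0 and 8.03 CPM with dexamethasone (edgeR adjusted p = 0.00218). The groups stayed apart in spite of a spread of 2.13 CPM (SD) among the treated cultures. HIF3A, which encodes a partner subunit in the transcription factor that senses low oxygen (chromosome 19, 46297046 to 46343433), had 7.05, 7.90 and 7.22 CPM with vehicle and 27.1, 24.9 and 23.6 CPM with dexamethasone. Its log2 fold change was 1.77 ± 0.10 (edgeR adjusted p = 5.74e-06). No other of the 25 tested genes of the hypoxia list passed, where 0.305% of all tested autosomal genes did.

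PER1, a repressor in the circadian clock that is known to respond quickly to hormone (chromosome 17, 8140472 to 8156506), rose from 36.9, 37.9 and 39.0 CPM to 87.6, 78.0 and 84.6 CPM. The log2 fold change of 1.14 ± 0.07 was measured with a small error (edgeR adjusted p = 5.74e-06). It was the 1 gene past the test among 22 tested clock genes (median -0.04), against 0.305% of all tested autosomal genes. PER2, its relative, differed by 0.19 ± 0.08 (log2) and NR1D2, a nuclear receptor of the clock's accessory loop, by -0.37 ± 0.10, neither past the test (edgeR adjusted p = 0.433 and 0.165).

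ZBTB16, a zinc finger transcription factor, rose from 5.19, 4.40 and 4.31 CPM to 12.7, 10.8 and 10.2 CPM, a log2 fold change of 1.28 ± 0.13. KLF15, a Krüppel-like factor that drives fuel switching, rose from 8.52, 9.16 and 6.81 CPM to 15.8, 12.3 and 14.6 CPM, or by 0.80 ± 0.13 on the log2 scale. KLF9 of the same family differed by a similar 0.73 ± 0.15 at a lower level, 3.095 ± 0.426 against 5.13 ± 0.32 CPM (SD, n = 3), without passing (edgeR adjusted p = 0.0879). DDIT4, an inhibitor of the growth kinase complex mTORC1, rose by 0.41 ± 0.07. With 1 culture left out in turn, KLF15 and DDIT4 each passed in 2 of 6 fits.

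Some of the best known targets had small values at 6 hours and did not pass the test. SGK1, a serum- and glucocorticoid-regulated kinase, had 12.1 ± 0.6 CPM with vehicle and 13.3 ± 1.4 CPM with dexamethasone (SD, n = 3), a log2 fold change of 0.14 with a 95% interval of -0.09 to 0.37. DUSP1, a phosphatase that switches off MAP kinases, had 0.20 ± 0.10, and NFKBIA, the inhibitor of NF-kB, 0.19 ± 0.08. Neither passed (edgeR adjusted p = 0.560 and 0.5001). The 95% interval of DUSP1 was -0.019 to 0.412. That of NFKBIA, 0.00128 to 0.370, lies above 0, and its groups did not overlap. DDIT4 had a 95% interval of 0.247 to 0.568, which overlaps those of SGK1, DUSP1 and NFKBIA, so these values do not rank the genes. Members that came nearer to the threshold were RASD1, a small GTPase, at 0.84 ± 0.16 (edgeR adjusted p = 0.0552), BCL6, a transcriptional repressor, at 0.40 ± 0.08 (edgeR adjusted p = 0.0816), FOXO1 at 0.43 ± 0.10 and CEBPD at 0.57 ± 0.13.

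MT2A, a metallothionein that binds zinc and copper (chromosome 16, 56608199 to 56609497), stood at 21.97, 29.7 and 24.3 CPM with vehicle and at 48.1, 49.0 and 51.0 CPM with dexamethasone. The treated cultures were nearly equal, and the log2 fold change was 0.96 ± 0.10 (edgeR adjusted p = 0.000815). All 5 tested members of the metallothionein list had a positive log2 fold change, against 48.6% of all tested autosomal genes, but MT2A alone passed. The list also held MTF1, a transcription factor and not a metallothionein, at 0.01 ± 0.07. MT1E had 1.10 ± 0.23, MT3 0.96 ± 0.24 and MT1F 0.47 ± 0.19, from vehicle levels of 1.36 to 2.74 CPM. The metallothionein genes are near copies of each other, so reads may have been lost or divided between them, and their separate values are uncertain.

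FAM107A, an actin-associated protein and a marker of outer radial glia (chromosome 3, 58564117 to 58627610, minus strand), rose from 100.2, 80.7 and 96.9 CPM to 220.8, 139.5 and 165.5 CPM. Dexamethasone culture 1 was the highest, and the log2 fold change was 0.92 ± 0.14 (edgeR adjusted p = 0.0150). The call was lost without vehicle culture 3. FAM107A was also the 1 gene among those past the test whose promoter windows held a loose glucocorticoid response element, the paired site to which a receptor dimer binds. The windows reach from 250 bases before to 50 bases after each transcription start in RefSeq (GRCh38.p14), and the loose element was searched as GNACA and TGTNC with 3 bases between, on both strands. Upstream of 1 start of FAM107A (chr3:58587182-58587264, minus strand) it lies 220 to 208 bases before the start, here in capitals:

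FAM107A: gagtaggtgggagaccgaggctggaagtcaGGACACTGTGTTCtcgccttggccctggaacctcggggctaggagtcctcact

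A second match lies upstream of another start of the gene. Windows were found for 17 of the 26 rises and 15 of the 23 falls. These held 29 and 26 windows, and the 11380 tested autosomal genes with a window held 16641. Genes past the test thus had more windows each, which can raise a share counted per gene. The loose element stood in 1 of the 17 (5.88%), in none of the 15 and in 34 of the 11380 tested autosomal genes with a window (0.299%). The exact element of AGAACA and TGTTCT with 3 bases between was in none of the 11380. A single arm of it, AGAACA or its complement TGTTCT, was in 4 of the 17 rises (23.5%) and in 5 of the 15 falls (33.3%), against 13.2% of all. The CACGTG E-box, the element of clock and MYC-type factors, was in 3 of 17 rises, 5 of 15 falls (33.3%) and 11.8% of all. A match is a string of letters and not a bound site, and glucocorticoid receptor binding is often far from promoters. To show an arm in a gene of each direction and the E-box of the clock gene, stretches are printed for PIK3R1 (chr5:68290414-68290484, plus strand), TGFB3 (chr14:75983131-75983216, minus strand) and PER1 (chr17:8152532-8152617, minus strand), with the match in capitals:

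PIK3R1: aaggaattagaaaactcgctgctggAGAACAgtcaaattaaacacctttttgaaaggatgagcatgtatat

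TGFB3: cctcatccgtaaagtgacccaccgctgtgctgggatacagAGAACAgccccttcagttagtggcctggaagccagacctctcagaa

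PER1: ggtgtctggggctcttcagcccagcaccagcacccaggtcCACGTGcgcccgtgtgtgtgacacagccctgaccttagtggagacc

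Rises outside the target list began with ALDH1L1 and SLCO2A1. ALDH1L1, a folate enzyme that marks astrocytes (chromosome 3, 126103562 to 126197994), rose from 1.56, 1.85 and 1.27 CPM to 4.39, 4.56 and 3.68 CPM, a log2 fold change of 1.43 ± 0.18 (edgeR adjusted p = 0.00452). SLCO2A1, a prostaglandin transporter (chromosome 3, 133928145 to 134052184), rose from 1.82, 1.53 and 1.19 CPM to 4.31, 4.65 and 3.24 CPM, or 1.42 ± 0.21. The call for SLCO2A1 was lost without vehicle culture 3 or dexamethasone culture 1, whereas that for ALDH1L1 was kept without any 1 culture. SMOX, a spermine oxidase, rose by 0.64 ± 0.11.

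RASSF4, a Ras-association domain protein (chromosome 10, 44959407 to 44995891), rose from 19.0, 16.8 and 16.8 CPM to 46.9, 37.8 and 41.7 CPM, a log2 fold change of 1.27 ± 0.09 (edgeR adjusted p = 4.88e-05). DEPP1, which lies within it on the opposite strand, was much lower and differed by 0.58 ± 0.18, not past the test (edgeR adjusted p = 0.261). DGKG, a diacylglycerol kinase (chromosome 3, 186105668 to 186362237), rose from 3.07, 2.79 and 2.75 CPM to 7.27, 5.83 and 7.79 CPM, or 1.28 ± 0.15. It overlaps ETV5 on the same strand, which did not move with it, at -0.21 ± 0.06 (edgeR adjusted p = 0.228). The strand setting of the counting is not given in the sources used here, so reads of overlapping genes on opposite strands cannot be told apart.

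LIFR, the receptor for leukemia inhibitory factor (chromosome 5, 38474963 to 38608354), rose from 165.9, 149.3 and 152.5 CPM to 241.9, 240.8 and 228.6 CPM, without overlap. Its log2 fold change was 0.61 ± 0.06 (edgeR adjusted p = 0.000794). LIF, its ligand, had 18.6 ± 1.6 CPM with vehicle and 14.5 ± 2.6 CPM with dexamethasone (SD, n = 3) and did not pass (edgeR adjusted p = 0.346). PIK3R1, a regulatory subunit of PI3 kinase, rose by 0.47 ± 0.05, with all 3 treated cultures between 183.6 and 189.2 CPM against 133.2 to 139.3 CPM. PIK3R1 and DDIT4 were the 2 genes past the test among 36 tested genes of the insulin, PI3K and FOXO list, whose median was 0.01. Of all tested autosomal genes, 0.162% were called higher. PREX1, an exchange factor for Rac, rose by 0.37 ± 0.07.

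AC009646.2, the antisense RNA (chromosome 8, 53177571 to 53242683), rose from 16.1, 19.1 and 17.9 CPM to 39.6, 36.0 and 29.5 CPM. The treated cultures were all above the vehicle cultures, and the log2 fold change was 0.98 ± 0.11 (edgeR adjusted p = 0.00185). OPRK1, the kappa opioid receptor gene on the opposite strand, had -0.02 ± 0.16. ADAMTS9, a secreted metalloprotease that cleaves proteoglycans (chromosome 3, 64515654 to 64688000), rose from 64.3, 62.0 and 58.2 CPM to 111.5, 102.2 and 103.7 CPM, or 0.78 ± 0.06.

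Rises also included genes best known from neurons. SP9, a transcription factor of forebrain interneurons (chromosome 2, 174334946 to 174338492), rose from 9.43, 12.03 and 8.95 CPM to 17.3, 16.0 and 16.5 CPM, a log2 fold change of 0.71 ± 0.12 (edgeR adjusted p = 0.0307). CALB1, the calcium buffer calbindin, rose by 0.45 ± 0.06 and NEFM, a neurofilament subunit, by 0.33 ± 0.06. MAGEL2, an imprinted gene of the Prader-Willi region, rose by 0.68 ± 0.09, IGSF11, an adhesion protein, by 0.66 ± 0.12, ECEL1, a membrane protein of the endopeptidase family found in neurons, by 0.37 ± 0.06, and ST18, a zinc finger factor, by 0.34 ± 0.06. With 1 culture left out in turn, SP9, NEFM, IGSF11, ECEL1 and ST18 each passed in 1 of 6 fits, CALB1 and MAGEL2 in 6. In H9, SP9 had 0.000621, ECEL1 -0.09 and NEFM -0.77 (log2). Without H9 vehicle culture 3 these values were -0.25, -0.11 and 0.13. CALB1, MAGEL2, IGSF11 and ST18 were positive in both H9 fits.

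Beside the rises of SP9 and CALB1, all 10 tested markers of inhibitory neurons had a positive log2 fold change, with a median of 0.44, and 6 had an unadjusted p under 0.05, but none passed the test. Of all tested autosomal genes, 48.6% were positive and 5.32% were higher at an unadjusted p under 0.05. DLX1 had 0.65 ± 0.14, SLC32A1, the vesicular GABA transporter, 0.67 ± 0.15 and GAD2, a GABA-synthesizing enzyme, 0.60 ± 0.13, with edgeR adjusted p of 0.0906, 0.0999 and 0.102. The summed level of the 10 was 375 to 511 CPM in the vehicle cultures and 532 to 718 CPM in the dexamethasone cultures, without overlap. The part of these markers in the rises of SP9 and CALB1 was not tested. The 10 pan-neuronal markers had a summed level of 3323 to 3334 CPM with vehicle and 3256 to 3713 CPM with dexamethasone, with NEFM past the test and NEFL at 0.26 ± 0.06. TUBB3, usually abundant in neurons, was counted at under 1 CPM on average in both groups.

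The falls were led by KCNJ13, an inward rectifier potassium channel known from the choroid plexus (chromosome 2, 232766464 to 232776568). It had 1.69, 2.67 and 2.13 CPM with vehicle and 0.593, 0.887 and 0.799 CPM with dexamethasone, a log2 fold change of -1.51 ± 0.25 (edgeR adjusted p = 0.0307). The gene lies within GIGYF2 on the opposite strand, which differed by 0.01 ± 0.06. Of the 6 tested choroid plexus markers, 4 had a positive value, against 48.6% of all tested autosomal genes. TTR, the plexus's carrier protein, varied between cultures, with 7.25 ± 5.09 against 7.91 ± 6.00 CPM (SD, n = 3), and AQP1 had a log2 fold change of 0.54 ± 0.16 that did not pass (edgeR adjusted p = 0.219). The call for KCNJ13 was lost on leaving out any culture except vehicle culture 1.

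Secreted signals were among the falls. CCL2, a chemokine that attracts monocytes (chromosome 17, 34255218 to 34257203), fell from 44.0, 45.6 and 50.1 CPM to 23.7, 29.2 and 28.4 CPM. The log2 fold change was -0.78 ± 0.09 (edgeR adjusted p = 0.00187). It was the 1 gene past the test among 23 tested genes of the list of cytokines, chemokines and NF-kB, of which 19 had a negative log2 fold change, with a median of -0.12. Of all tested autosomal genes, 51.4% were negative and 0.143% were called lower. IL11, a cytokine of the interleukin-6 family, had 2.87 ± 0.60 CPM with vehicle and 1.38 ± 0.29 CPM with dexamethasone (SD, n = 3) and came near the threshold (edgeR adjusted p = 0.0906).

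TGFB3 (chromosome 14, 75958099 to 75982991) and TGFB2 (chromosome 1, 218346235 to 218444619), ligands of the TGF-beta receptor, both fell. TGFB3 went from 17.6, 15.4 and 15.5 CPM to 9.84, 11.4 and 10.3 CPM, a log2 fold change of -0.62 ± 0.10 (edgeR adjusted p = 0.0307). TGFB2 went from 74.2, 58.0 and 69.8 CPM to 45.5, 50.4 and 47.2 CPM, or -0.50 ± 0.09 (edgeR adjusted p = 0.0400), with vehicle culture 2 the nearest to the treated cultures. The 2 ligands were the members past the test among 45 tested genes of the TGF-beta, activin and BMP list, of which 32 were negative with a median of -0.07, against 51.4% negative and 0.143% called lower over all genes. LTBP1, which holds latent TGF-beta in the matrix, had -0.34 ± 0.08 and did not pass the test (edgeR adjusted p = 0.132). The call for TGFB3 was lost on leaving out any culture except dexamethasone culture 2, and that for TGFB2 on leaving out any except vehicle culture 2.

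Proteases of the matrix changed in both directions. ADAMTS1, of the same family as ADAMTS9 (chromosome 21, 26835747 to 26845409), fell from 21.4, 25.1 and 24.3 CPM to 12.9, 15.6 and 16.9 CPM, or -0.64 ± 0.11. ADAMTS9 and ADAMTS1 were those past the test among 51 tested matrix genes and proteases, of which 39 were negative with a median of -0.15, against 51.4% negative and 0.305% called over all genes. FBN2, a fibrillin, had -0.36 ± 0.07 (edgeR adjusted p = 0.0518) and COL4A1, a basement membrane collagen, -0.31 ± 0.06 (edgeR adjusted p = 0.0899). The summed level of the 10 tested mesenchymal markers ran from 2513 to 4050 CPM in the vehicle cultures and from 1998 to 3791 CPM in the dexamethasone cultures, with 8 of the 10 negative and none past the test. Their part in the matrix values was not tested. PRSS23, a secreted serine protease, fell by 0.40 on the log2 scale.

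SEL1L3 (chromosome 4, 25747427 to 25863760) fell from 321.6, 288.8 and 300.5 CPM to 191.1, 194.2 and 206.3 CPM, a log2 fold change of -0.62 ± 0.06 (edgeR adjusted p = 0.000794). CA2, a carbonic anhydrase (chromosome 8, 85463852 to 85481493), fell from 125.1, 124.3 and 117.9 CPM to 76.4, 81.7 and 86.8 CPM, or -0.58 ± 0.06. ABCA1, the exporter of cellular cholesterol (chromosome 9, 104781002 to 104928237), fell from 138.4, 140.6 and 146.5 CPM to 91.7, 101.5 and 113.9 CPM, or -0.47 ± 0.07. All groups were again apart, with dexamethasone culture 1 the lowest for each of the 3 genes. ABCA1 was the 1 gene past the test among 22 tested genes of the cholesterol list. Of these 22, 17 were positive with a median of 0.07, against 48.6% positive and 0.143% called lower over all genes. LPCAT2, a lysophospholipid acyltransferase, fell from 17.0, 18.8 and 20.0 CPM to 11.6, 13.9 and 11.9 CPM, or -0.58 ± 0.10.

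SYTL2, a synaptotagmin-like protein of vesicle traffic (chromosome 11, 85694224 to 85811159), fell from 23.7, 24.8 and 22.5 CPM to 14.3, 15.7 and 14.6 CPM, a log2 fold change of -0.67 ± 0.09 (edgeR adjusted p = 0.00441). ANO4, an anoctamin of the membrane (chromosome 12, 100717526 to 101128641), fell from 44.2, 53.9 and 46.9 CPM to 28.0, 31.6 and 32.7 CPM, or -0.65 ± 0.09, and its call was lost without dexamethasone culture 1. CLEC19A, a C-type lectin (chromosome 16, 19285739 to 19322145), fell from 33.8, 34.3 and 25.1 CPM to 16.9, 20.4 and 16.4 CPM, or -0.79 ± 0.12. Vehicle culture 3 was the lowest of its group for SYTL2 and CLEC19A. WSCD2 (chromosome 12, 108129471 to 108250537) fell from 18.2, 16.0 and 15.9 CPM to 10.9, 10.7 and 10.3 CPM, or -0.65 ± 0.10. SHISA9, an auxiliary subunit of AMPA receptors (chromosome 16, 12901620 to 13240413), fell from 30.7, 24.5 and 30.0 CPM to 19.9, 19.8 and 18.9 CPM, or -0.54 ± 0.09. The smaller falls were SEMA6D, a guidance semaphorin, at -0.44, S100B, a calcium-binding protein of astrocytes, at -0.42, SORCS1, a sorting receptor, at -0.40, ST6GALNAC5, a sialyltransferase, at -0.35, PLEKHG4B at -0.34, SLC35F1 at -0.34 and PLEKHG1 at -0.31.

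Astrocyte markers did not move as 1 group. ALDH1L1 rose and S100B fell, though S100B passed in only 1 of 6 fits with 1 culture left out. Of the 11 tested markers 7 were negative with a median of -0.04. Over all tested autosomal genes 51.4% were negative and 0.305% passed the test. The gap junction gene GJA1 had -0.39 ± 0.08 (edgeR adjusted p = 0.0939) and SPARCL1 -0.26 ± 0.05 (edgeR adjusted p = 0.0761). The summed level of the 11 markers was 1150 to 1251 CPM with vehicle and 1103 to 1123 CPM with dexamethasone. Radial glia markers had a median of -0.02 over 14 tested, with FAM107A and LIFR past the test, against the same 0.305% of all genes. The 26 tested immediate early genes, the 37 of growth arrest and apoptosis, the 43 of the Wnt pathway, the 23 of the Notch pathway and the 24 of ion and water transport held no gene past the test. Their medians were -0.02, -0.09, -0.04, 0.19 and 0.07.

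**Figure D3:**
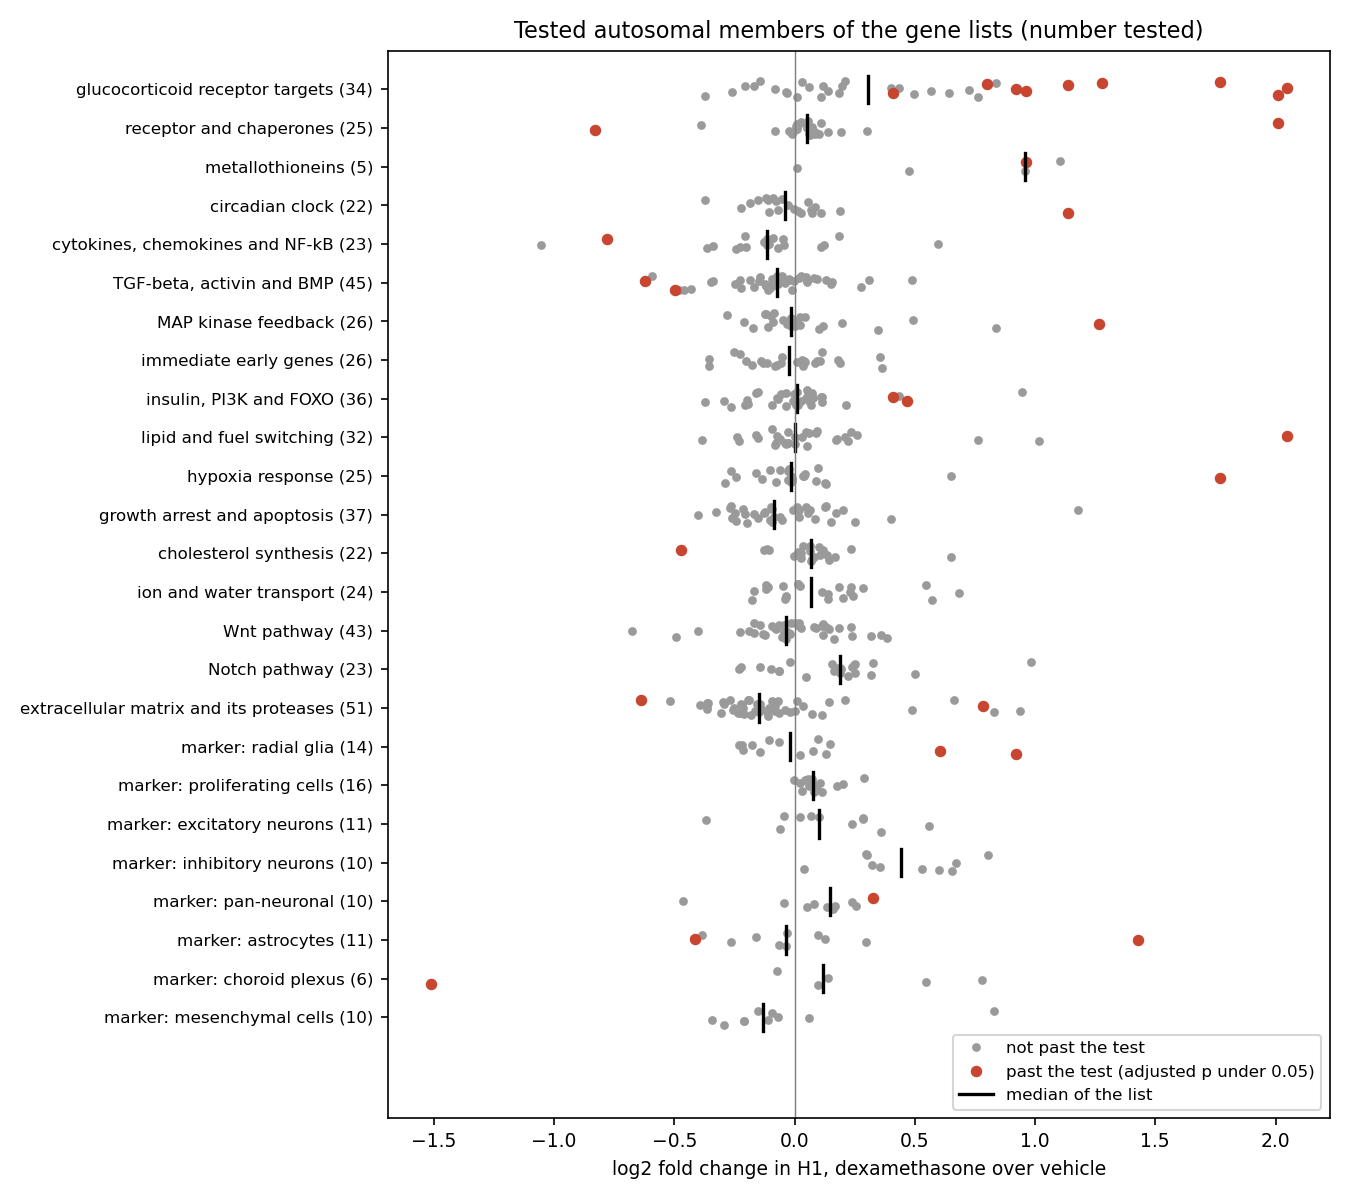
Log2 fold change of dexamethasone over vehicle in H1 (horizontal axis) for each tested autosomal member of 25 gene lists (vertical axis, with the number tested), in red where it passed the test and grey where it did not, with a black bar at the list's median. The 34 glucocorticoid receptor targets hold 9 red points with a median of 0.30, and the 10 inhibitory neuron markers all lie right of 0 with none in red.

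To see which of these changes appear in cultures that the H1 fit did not use, the 49 genes were read in the 6 H9 libraries, which have their own vehicle cultures. AC009646.2 was too low there to be tested. Of the other 48, 21 of 25 rises were positive in H9, and 15 of 23 falls were negative, while 49.6% of all tested autosomal genes were positive. An unadjusted p under 0.05 in the H1 direction was reached by 15 rises and 3 falls, against 5.09% of all genes in either direction. Past adjustment, FKBP5 and MT2A rose in H9 too, and no fall passed, where 0.0125% of all genes did (edgeR on the H9 libraries alone). The median log2 fold change in H9 was 0.77 for the rises and -0.06 for the falls.

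One H9 library bears on these counts. H9 vehicle culture 3 had 14751168 counts, the fewest of the 12 libraries, with 0.607% of them on mitochondrial genes. Without it, 22 of 25 rises were positive and 21 of 23 falls negative in H9. An unadjusted p under 0.05 was then reached by 20 rises and 8 falls in the H1 direction, against 11.2% of all genes, and 16 of the rises and none of the falls passed adjustment, against 0.333% of all. The median of the falls was -0.14.

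**Figure D4:**
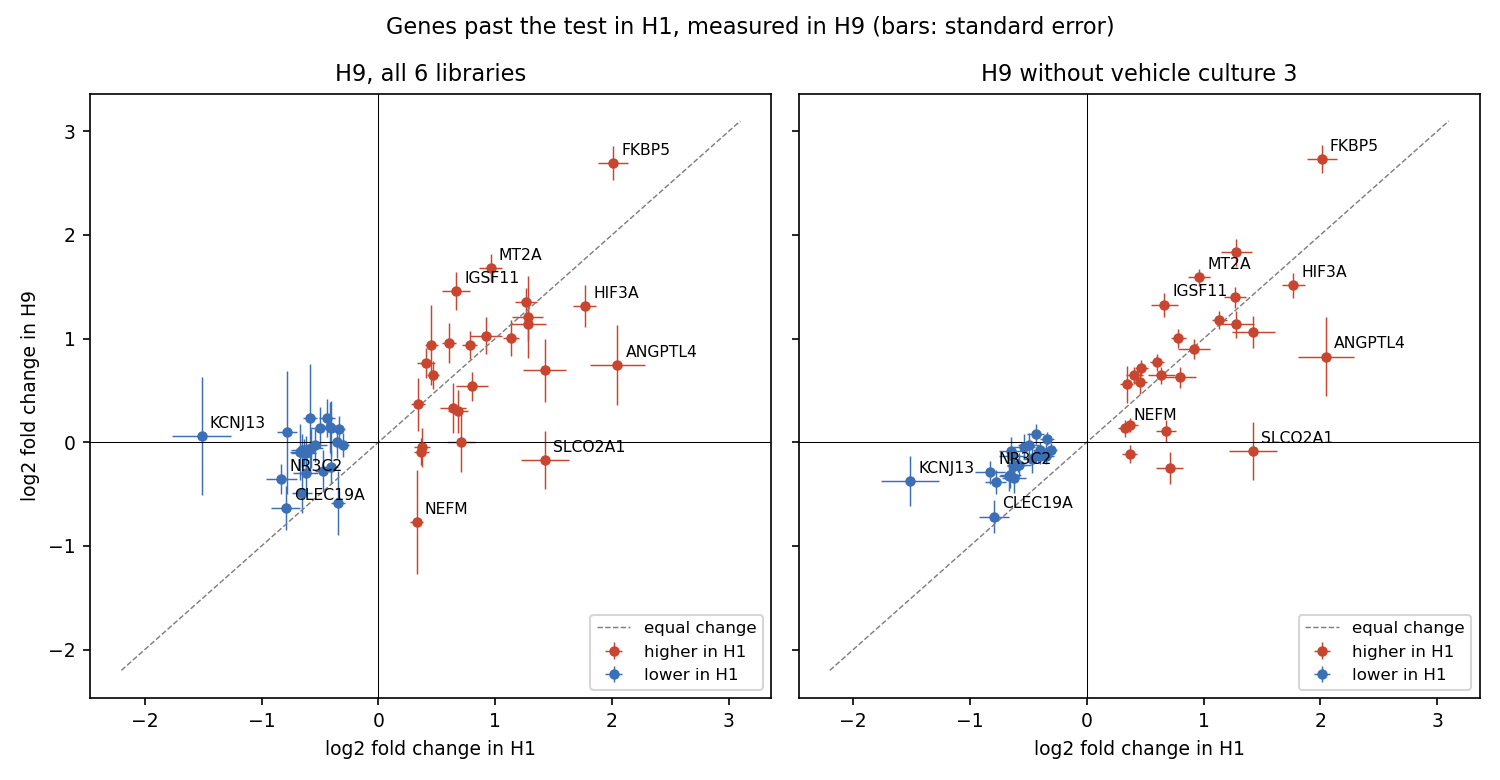
Log2 fold change in H9 (vertical axis) against that in H1 (horizontal axis) for the genes past the test in H1, with all H9 libraries on the left and without H9 vehicle culture 3 on the right. Bars are standard errors, red marks rises and blue falls in H1, and the dashed line marks equal change. Most rises lie above 0 in both panels. The falls have medians of -0.06 and -0.14 in H9 and lie on both sides of 0 in each panel, with CLEC19A the lowest at -0.63 and -0.72.

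The difference of the effect between the lines was tested directly over all 12 libraries. None of 17819 genes passed (edgeR interaction test, with 1329 at an unadjusted p under 0.05 and none called by DESeq2), so no gene is called particular to H1. Of the 49 genes, 18 had an unadjusted p under 0.05 for the difference, against 7.54% of all tested autosomal genes, and 29 did without H9 vehicle culture 3, against 10.4%. The 49 were chosen by their H1 values, which enter this difference, so these counts are a description. SLCO2A1 had the smallest p among them: it rose by 1.42 in H1 and had -0.17 ± 0.28 in H9, a difference of 1.61 ± 0.35 (unadjusted p = 0.000650, edgeR adjusted p = 0.548). Without H9 vehicle culture 3, SP9 had the smallest p among the 49 (edgeR interaction test, unadjusted p = 0.000204, adjusted p = 0.306). MT2A, IGSF11 and FKBP5 had larger values in H9, at 1.68 ± 0.13, 1.46 ± 0.18 and 2.69 ± 0.17. They differed between the lines by -0.70 ± 0.17, -0.78 ± 0.22 and -0.67 ± 0.21 over all 12 libraries. CLEC19A, at -0.63 ± 0.21 in H9, had the largest negative H9 value among the falls.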

How the data were processed

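Polyadenylated RNA was sequenced in pooled libraries over more than 1 NextSeq flow cell, per the labels' protocols, with no flow cell named for a library. The deposited files hold raw whole-number counts per gene for each library. STAR 2.5.3a and HTSeq are named in the submitters' processing notes, with hg38 (GRCh38.p10) as build. Not given in the sources used here are the annotation release, the strand setting and how shared reads were treated, so reads of overlapping or near-identical genes may have been lost.

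Of 63925 gene IDs, 41875 took a symbol from the gene name table and 16209 from GENCODE 29, which gave the positions. 5841 had neither. The counts of the 6 H1 libraries were filtered by filterByExpr and scaled by TMM in edgeR 4.0.16 (R 4.3.3). The 16866 genes left were tested by the quasi-likelihood F-test with 1 mean per treatment and Benjamini-Hochberg adjustment over all of them, at 0.05. Calls were counted over the 16045 on the 22 autosomes, which leaves out 622 on X, Y or the mitochondrial genome and 199 IDs with no position. SE is the log2 fold change over the square root of F. H9 was fitted in the same way, and the difference of the lines over all 12 libraries.

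Genes with a mean CPM of at least 1 and no overlap between treatments were described in every culture, the 15 largest rises and the 15 largest falls first, and the other genes past the test were named. The comparison, gene lists and motifs were chosen with earlier results of these data known. The 17 pathway lists and 13 marker lists are described by counts and medians without a test. The lists with no values in the report are in the closing section. Promoter stretches are from RefSeq, GRCh38.p14, and cover 11380 of the tested autosomal genes in 16641 windows. Bases within exons were left out of printed stretches.

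The test was checked on simulated data. Alternatives were RLE size factors, DESeq2 1.42.0, voom in limma 3.58.1, other filters, library sizes without mitochondrial and the 20 most abundant genes, adjustment over autosomes, all 12 libraries in 1 fit, a replicate block and each culture left out. Figures used Python 3.11.15 and matplotlib 3.10.9.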

Additional observations from a re-analysis of the deposited data

Results flagged for a closer look

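SLC35F1, a solute carrier family member, was lower in every dexamethasone culture than in any vehicle culture of H1 (98.4 ± 3.0 against 124.6 ± 6.3 CPM, SD, n = 3) and higher in every dexamethasone culture than in any vehicle culture of H9. The effect in H1 minus that in H9 was -0.45 ± 0.13 (log2, unadjusted p = 0.00514), which was not past adjustment over all genes (edgeR adjusted p = 0.548). In H9 the log2 fold change was 0.12 ± 0.13, and 0.03 ± 0.06 without H9 vehicle culture 3. In H1 its call was lost without any 1 of 5 cultures in turn, the exception being dexamethasone culture 2.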

How the results depend on the processing

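DESeq2 called 94 genes higher and 91 lower in H1, no filter on low counts gave 233 and 199, and the fit with a replicate block gave 98 and 104. Each of these included all 26 and 23 genes reported. With all 12 libraries in the fit, 9 were higher (ANGPTL4, FKBP5, HIF3A, DGKG, RASSF4, PER1, AC009646.2, MT2A and ADAMTS9) and 0 lower. Leaving out 1 culture gave 16 to 77 higher and 4 to 24 lower. The cause was not tested. RLE factors, trimmed library sizes and adjustment over autosomes kept the same 26 and 23, voom kept 21 and 20, and a filter at a CPM of 1 in 3 libraries kept 21 and 23. Of the 49 genes in 15 alternatives each, none changed sign. The count of the 49 with the same sign in H9 was 36, 36 with the replicate block and 31 to 43 on leaving out 1 H9 culture. The line difference stayed at 0 genes with DESeq2, the replicate block and without H9 vehicle culture 3. Same-numbered cultures of both treatments deviated together weakly (r of 0.24, 0.12 and 0.06, across genes). Of the 6 cultures, 5 correlated best with their own number. These values do not settle whether equal numbers mark pairs. The main fit took the cultures as unpaired, and the replicate block gives the counts with same-numbered cultures matched. Depth limits genes near 1 CPM such as KCNJ13, where an SE of 0.25 compares with a median of 0.10 over all autosomal genes.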

Other observations

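Chromosome 3 carried 7 of the 26 rises and none of the falls, with 5.98% of the tested autosomal genes: ALDH1L1, SLCO2A1, DGKG, FAM107A, KLF15, ADAMTS9 and IGSF11. ALDH1L1 and KLF15 lie close together on its long arm (126103562 to 126197994 and 126342635 to 126357442). Chromosome 8 carried 5 of the 49 genes, 4 rises and 1 fall, with 3.83% of the tested genes. Chromosome 21 had the highest share of its tested genes past the test, 1.1% (2 of 181, both falls). These tallies were noticed in the data and were not tested.

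In the Notch list 16 of 23 tested genes were positive, 9 were higher and 2 lower at an unadjusted p under 0.05, and none passed. Over all tested autosomal genes 48.6% were positive, and 5.32% were higher and 4.68% lower at that p. LFNG, a glycosyltransferase that modifies Notch, had 22.6 to 24.9 CPM in the 3 vehicle cultures and 39.8, 27.0 and 33.0 CPM with dexamethasone, a log2 fold change of 0.50 ± 0.12. DTX1, a ubiquitin ligase of the pathway, had 0.33 ± 0.07. Of the 16 tested proliferation markers 15 were positive, against 48.6% of all, with a median of 0.08 and none past the test. In the MAP kinase feedback list RASSF4 passed and the median over 26 was -0.01. In the list of lipid and fuel switching ANGPTL4 passed and the median over 32 was 0.000593. Of all tested autosomal genes, 0.305% passed. Markers of excitatory neurons (11 tested, median 0.10), the oligodendrocyte lineage (6, 0.10), neural crest (3, -0.06), endothelial cells (4, -0.14) and pluripotent cells (3, -0.04) held no gene past the test, nor did the 1 tested marker of microglia and blood.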
